A study of Mus musculus with 21 samples.

Results

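The nuclear genes for subunits of the mitochondrial respiratory chain and of ATP synthase were examined by bulk RNAseq in the neocortex of rNLS8 mice and control littermates. The labels name neocortex as the tissue, whereas another part of the study's text names hippocampus for this line. Members were chosen by gene symbol alone. They are all rows of the count table whose symbol is Nduf with a, b, c, s or v and a number, Sdha to Sdhd, a symbol that begins with Uqcr, one that begins with Cox, a digit from 4 to 8 and a letter, or one that begins with Atp5. Rows for further copies of a symbol and pseudogenes with a -ps ending were left out. This gave 85 genes of 48474 rows, with 37 genes for complex I, 4 for complex II, 8 for complex III, 19 for complex IV and 17 for complex V. Together they held 0.942% of all counts. After a filter on low counts, 82 members were tested, and the 3 others (Cox7b2, Cox8b and Cox8c) belong to complex IV.

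The rNLS8 line expresses human TDP-43ΔNLS, a form of TDP-43 that lacks its nuclear localization signal, under the neurofilament heavy chain promoter. The study's text places its expression almost only in neurons, with very little in oligodendrocytes. The transgene stays off while the diet contains doxycycline. The comparison covered 10 bigenic rNLS8 mice (labeled TG) and 11 controls (labeled WT) on a C57BL/6J background. The controls are called wild-type here as in the labels, although the design text describes them as littermates that carry 1 transgene, without naming which. Mice of both genotypes were 17 to 19 weeks old when a non-targeting antisense oligonucleotide (350 µg in a volume of 10 µL) was injected into a cerebral ventricle. All ate doxycycline diet at 200 mg/kg until 2 weeks after the injection and were killed after 3 further weeks without it. They came from independent cohorts, labeled batch A (4 wild-type and 3 rNLS8 mice) and batch B (7 and 7).

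The respiratory chain sits in the inner mitochondrial membrane. Complex I takes electrons from NADH and complex II takes them from succinate, both pass them to ubiquinone, complex III passes them on to cytochrome c, and complex IV hands them to oxygen. Complexes I, III and IV pump protons, and complex V, the ATP synthase, lets the protons flow back through a rotating ring and makes ATP. Most subunits are encoded in the nucleus and a few in mitochondrial DNA, so each complex except the wholly nuclear complex II is built from both genomes. Neurons depend on this pathway for most of the ATP that ion pumping and synaptic transmission consume.

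Total counts per mouse were between 20700912 and 22263809, and 3 counts correspond to 0.135 to 0.145 CPM (counts scaled to the total of a mouse). A normalised read count is the count divided by the library's effective size by edgeR's TMM scaling and multiplied by the mean effective size. Genes were compared with edgeR's quasi-likelihood test with batch as covariate. A gene is called lower or higher in rNLS8 mice at a Benjamini-Hochberg adjusted p under 0.05 over the 18248 genes tested. Errors of log2 fold changes are standard errors (n = 10 rNLS8 and 11 wild-type mice), and intervals are 95% confidence intervals. Mice are named by their library number in the labels. The rNLS8 mouse T_61340 of batch A stood apart from the other rNLS8 mice in many subunit genes, and values without it are given for the levels and counts of the complexes and for named genes whose call changed without it.

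More subunit genes were lower than higher in rNLS8 mice. Of the 82 tested members, 37 were lower, 6 were higher and 39 were not called. Over all genes tested, 44.7% were called, 21.7% lower and 23.0% higher, whereas the corresponding shares of the members were 45.1% and 7.32%. The median log2 fold change was -0.11 over the members and -0.0007 over all genes tested. The changes were small, since every called member lay between -0.55 and 0.27. In 5 members (Ndufc1, Ndufs1, Sdha, Uqcrfs1 and Atp5g3) every rNLS8 mouse had a lower normalised count than every wild-type mouse, a pattern found in 3.80% of all genes tested. No member had every rNLS8 mouse above every wild-type mouse, which held for 3.85% of all genes. The split depended on the scaling, because without TMM factors 27 members were lower and 12 were higher, beside 15.1% and 32.0% of all genes (47.0% called). The median was then -0.03 over the members and 0.08 over all genes tested.

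**Figure D1:**
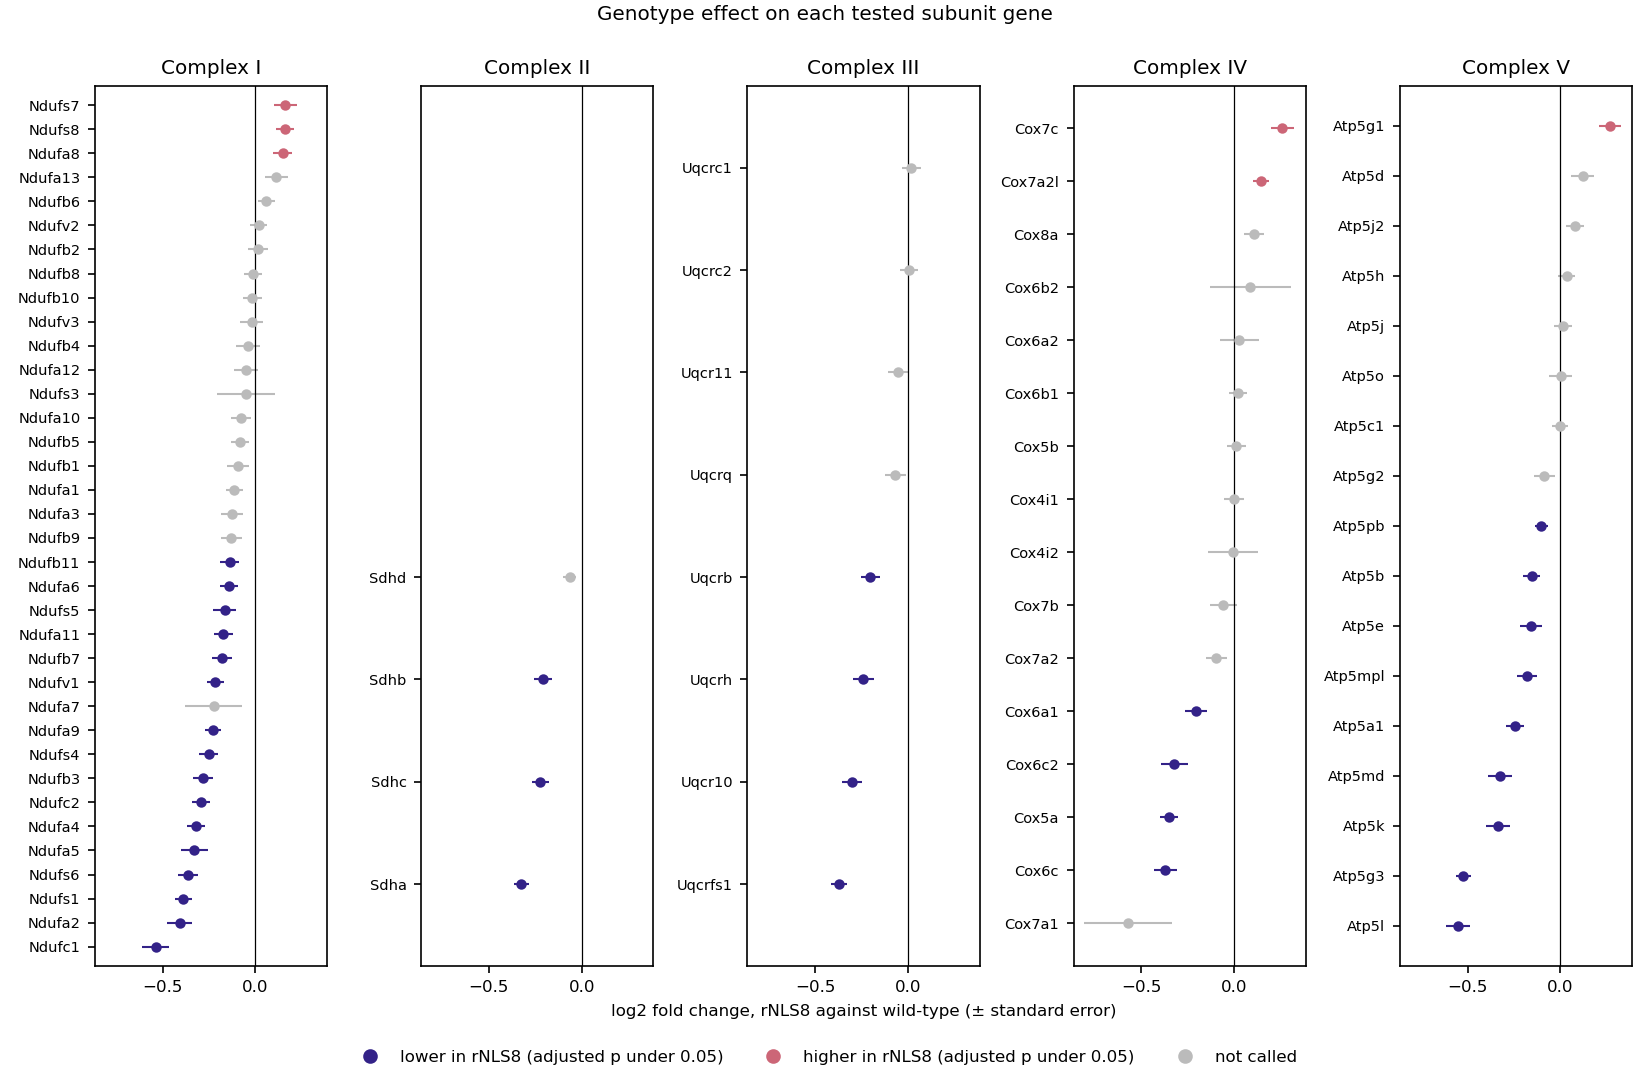
Log2 fold change of rNLS8 against wild-type mice (x axis, points, with standard errors as bars) for each of 81 of the 82 tested subunit genes (y axis), in 1 panel per complex. Genes called lower are dark blue, genes called higher are red and genes that were not called are grey, and most called genes lie left of 0 in each panel.

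Complex by complex, 17 of 37 tested genes of complex I were lower and 3 were higher, with a median log2 fold change of -0.13. Without mouse T_61340 they were 22 and 1. For complex II, 3 of 4 were lower and the median was -0.22. Complex III had 4 of 8 genes lower and a median of -0.14. In complex IV, 4 of 16 tested genes were lower and 2 higher, with a median of -0.0041. In complex V, 9 of 17 genes were lower and 1 was higher, with a median of -0.10. Without T_61340, 10 genes of complex V were lower, and the counts of complexes II to V were otherwise the same. With scaling by library size only, complex I had 12 genes lower and 5 higher, with a median of -0.05, complex III had 4 lower with a median of -0.06, complex IV had 3 lower and 3 higher, with a median of 0.07, and complex V had 5 lower and 4 higher, with a median of -0.03.

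The mean log2 CPM over the tested subunits of a complex was also taken in each mouse, as a description without a test. For these levels CPM was scaled to the library's effective size by TMM and not to its total. For complex I it lay between 5.95 and 6.10 (median 6.03) in wild-type mice and between 5.73 and 6.09 (median 5.87) in rNLS8 mice, and 8 of 10 rNLS8 mice were below all wild-type mice. For complex II the ranges were 6.75 to 6.89 and 6.50 to 6.80, and 9 of 10 rNLS8 mice were below all wild-type mice, as they were for complexes III and V. For complex IV the ranges of 5.36 to 5.80 and 5.22 to 5.67 overlapped over most of their length, and 4 of 10 rNLS8 mice were below all wild-type mice. The differences between the group means were -0.14, -0.21, -0.16, -0.09 and -0.13 for complexes I to V. Within batches the difference for complex IV was -0.18 in batch A and -0.03 in batch B, and its wild-type mean was 5.65 in batch A and 5.42 in batch B. Each tested subunit had the same weight in these means, including Cox4i2, Cox6a2, Cox6b2 and Cox7a1, which had low counts. In batch A alone the log2 fold changes of these 4 genes were -0.04, 0.19, -0.47 and -1.66. For the other complexes the differences were between -0.15 and -0.21 in batch A and between -0.12 and -0.21 in batch B. The same rNLS8 mouse, T_61340 of batch A, was the highest of its group for each complex. Without it the differences were -0.17, -0.23, -0.19, -0.12 and -0.16. When the median over subunits replaced the mean in each mouse, the difference for complex V was 0.0051 and that for complex I was -0.03.

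**Figure D2:**
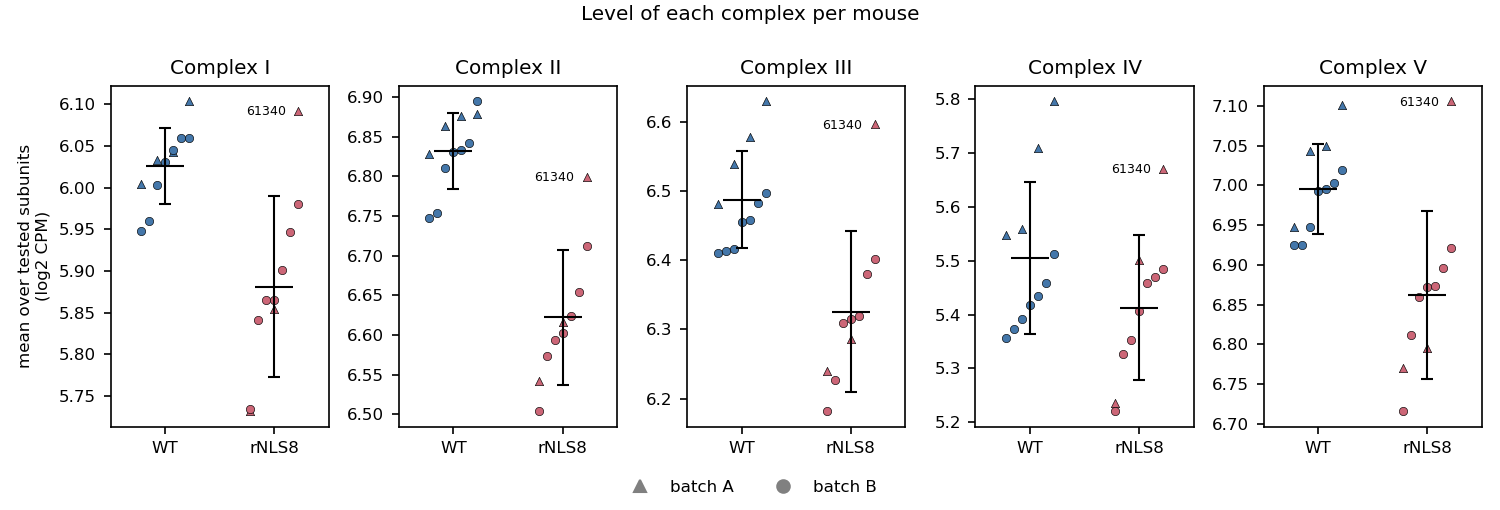
Mean log2 CPM over the tested subunits of each complex (y axis, 1 panel per complex, axes not starting at 0) in each wild-type and rNLS8 mouse, with triangles for batch A and circles for batch B, and horizontal lines and bars for mean and SD. The rNLS8 mouse T_61340 lies above the other rNLS8 mice in every panel, and the groups overlap most for complex IV.

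Complex I has a peripheral arm, in which the N module oxidizes NADH and the Q module reduces ubiquinone, and a membrane arm that pumps protons. In the N module, 6 of 10 genes were lower (Ndufa2, Ndufa6, Ndufs1, Ndufs4, Ndufs6 and Ndufv1) and none was higher. Among the Q module genes given here by name, which are not all of its genes, Ndufa5 and Ndufa9 were lower, Ndufs7 and Ndufs8 were higher and Ndufs3 was not called. In the membrane arm, 7 of 20 were lower, 1 was higher and 12 were not called. This count moved with the setting, to 12 lower and none higher without mouse T_61340 and to 3 lower and 3 higher with library-size scaling. In the N module Ndufa6 was no longer called under that scaling (adjusted p = 0.265). The remaining gene, Ndufa4, is named for complex I but its product is known as a subunit of complex IV. Chosen after its values were seen, Ndufa4 was lower at -0.32 ± 0.05 (adjusted p = 1.33e-05 by edgeR).

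Ndufs1 (chr1:63143592-63176822, GRCm38) encodes the largest subunit of the peripheral arm, which carries iron-sulfur clusters of the electron path. Its normalised read count was between 2319 and 2908 (median 2668) in wild-type mice and between 1645 and 2295 (median 2068) in rNLS8 mice. The groups did not overlap. The log2 fold change was -0.39 ± 0.04 with an adjusted p of 1.69e-07 in edgeR's test, and it was -0.42 in batch A and -0.37 in batch B. Ndufv1 (chr19:4007499-4012755), which binds NADH and the flavin, had counts of 2756 to 3224 (median 3097) against 2408 to 3207 (median 2628). All rNLS8 mice except T_61340 were below the wild-type range, and the gene was lower at -0.22 ± 0.05 (adjusted p = 0.000437 by edgeR). Ndufv2 (chr17:66078795-66101559), the partner of Ndufv1 in this module, ranged from 1931 to 2292 (median 2082) in wild-type and from 1877 to 2576 (median 2108) in rNLS8 mice. For Ndufv2 the groups overlapped over the whole wild-type range and the log2 fold change was 0.02, with an interval from -0.08 to 0.12. The partner genes Ndufv1 and Ndufv2 thus had different calls, although the difference between them was not tested.

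Among the accessory genes of the N module, Ndufa2 and Ndufs6 differed most. Ndufa2 (chr18:36742332-36744587) had counts of 654 to 871 (median 766) in wild-type and 432 to 686 (median 588) in rNLS8 mice, and 9 of 10 rNLS8 mice were below all wild-type mice. Its log2 fold change was -0.41 ± 0.07 (adjusted p = 2.87e-05 by edgeR). Ndufs6 (chr13:73319876-73328482), whose product binds zinc, ranged from 706.5 to 844 (median 798) and from 487 to 721 (median 602). Only T_61340 reached into the wild-type range, and the gene was lower at -0.36 ± 0.06 (adjusted p = 1.11e-05 by edgeR). Ndufa7 was not called at -0.22 ± 0.15 (adjusted p = 0.248) and is named here after its values were seen, because 1 mouse stood apart. In mouse T_61340 Ndufa7 had a normalised count of 241, whereas the other rNLS8 mice had 756 to 1161 and wild-type mice 946 to 1293.

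Genes called higher stood beside genes called lower in the Q module. Ndufs7 (chr10:80249105-80256794) and Ndufs8 (chr19:3908863-3912774) encode the iron-sulfur proteins that hand electrons on towards ubiquinone. Ndufs8 ranged from 985 to 1154 (median 1097) in wild-type and from 1106 to 1506 (median 1179) in rNLS8 mice, with 6 of 10 rNLS8 mice above all wild-type mice. The log2 fold change of Ndufs8 was 0.16 ± 0.05 (adjusted p = 0.0122 by edgeR). Ndufs7 ranged from 1138 to 1343 (median 1211) and from 1193 to 1779 (median 1307), and it was higher at 0.16 ± 0.06 (adjusted p = 0.0346 by edgeR). The call of Ndufs7 was lost without any 1 of 7 mice, T_61340 among them (adjusted p = 0.0869), and with adjustment for transcript length and GC content (adjusted p = 0.0622, against 0.0310 for Ndufs8). Ndufs3 (chr2:90894627-90904721) was not called at -0.05, with an interval from -0.38 to 0.27, and wild-type mouse T_61345 (616) and rNLS8 mouse T_69524 (490) were far below the other mice (983 to 1700).

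Ndufc1 (chr3:51405479-51408955), an accessory gene of the membrane arm, had the largest change in complex I. Its normalised count was 514 to 698.5 (median 628) in wild-type and 316 to 495.5 (median 433) in rNLS8 mice, without overlap. The log2 fold change was -0.54 ± 0.07 (adjusted p = 1.90e-06 by edgeR), with -0.64 in batch A and -0.48 in batch B. Ndufa8 (chr2:36036324-36049338), another accessory gene of this arm, was the one gene of the arm called higher, at 0.15 ± 0.05 (adjusted p = 0.0221 by edgeR). Its counts were 1469 to 1730 (median 1577) and 1519 to 2107 (median 1730), so 5 of 10 rNLS8 mice were within the wild-type range. The call was lost without mouse T_61340 (adjusted p = 0.0522) and with adjustment for length and GC content (adjusted p = 0.0793).

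Complex II is the succinate dehydrogenase of the citric acid cycle, with the catalytic proteins Sdha and Sdhb on the membrane anchors Sdhc and Sdhd. Sdha (chr13:74322255-74350240), the flavoprotein, had counts of 7945 to 9372 (median 8846) in wild-type and 5785 to 7719 (median 6966) in rNLS8 mice. The groups did not overlap, and the gene was lower at -0.33 ± 0.04 (adjusted p = 3.80e-07 by edgeR). Sdhb (chr4:140961271-140979198), the iron-sulfur protein, ranged from 1789 to 2017 (median 1871) and from 1424 to 1981 (median 1642), with 8 of 10 rNLS8 mice below all wild-type mice. Its log2 fold change was -0.21 ± 0.05 (adjusted p = 0.00128 by edgeR). For Sdhc (chr1:171129157-171150640) the counts were 1410 to 1918 (median 1584) and 1216 to 1671 (median 1309), again with 8 of 10 rNLS8 mice below the wild-type range, and the gene was lower at -0.22 ± 0.05 (adjusted p = 0.000304 by edgeR). Sdhd (chr9:50596340-50603849) was the one gene of complex II that was not called by edgeR over all mice. It ranged from 1245 to 1424 (median 1353) and from 1128 to 1413 (median 1246), and its log2 fold change was -0.06 with an interval from -0.14 to 0.01 (adjusted p = 0.154). With adjustment for transcript length and GC content it was called lower at -0.07 (adjusted p = 0.0364).

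In complex III the Rieske protein carries the iron-sulfur cluster that passes electrons to cytochrome c1, and the core proteins Uqcrc1 and Uqcrc2 form the part that faces the matrix. The core genes were not called (0.02 and 0.01), while Uqcrfs1 and 3 of 5 small subunit genes were lower. Uqcrfs1 (chr13:30540312-30545316), which encodes the Rieske protein, had counts of 1722 to 2219 (median 1911) in wild-type and 1339 to 1621 (median 1465) in rNLS8 mice, without overlap. Its log2 fold change was -0.37 ± 0.04 (adjusted p = 3.09e-07 by edgeR), with -0.44 in batch A and -0.34 in batch B.

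The called small subunits of complex III were Uqcr10, Uqcrh and Uqcrb. Uqcr10 (chr11:4701968-4704344) ranged from 1309 to 1899 (median 1422) in wild-type and from 1052 to 1481 (median 1174) in rNLS8 mice, and was lower at -0.30 ± 0.05 (adjusted p = 5.19e-05 by edgeR). Uqcrh (chr4:116066965-116075070), the hinge protein near cytochrome c1, ranged from 2157 to 2733 (median 2409) and from 1804 to 2365 (median 2100), and was lower at -0.24 ± 0.06 (adjusted p = 0.00114 by edgeR). Uqcrb (chr13:66900576-66905350), which takes part in ubiquinone binding, ranged from 779 to 927 (median 809) and from 590 to 837 (median 732), at -0.20 ± 0.05 (adjusted p = 0.00253 by edgeR). In each of these 3 genes the groups overlapped, and 6 to 8 of 10 rNLS8 mice were below all wild-type mice.

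In complex IV, cytochrome c oxidase, the catalytic core is mitochondrially encoded and the nuclear subunits surround it. Among the 10 nuclear subunit genes of most tissues, 3 were lower (Cox5a, Cox6a1 and Cox6c), Cox7c was higher and 6 were not called. Under library-size scaling Cox6a1 was no longer called (adjusted p = 0.0613) and Cox8a was higher (adjusted p = 0.00350), which gave 2 lower and 2 higher. Cox5a (chr9:57517328-57532427) had counts of 2021 to 2583 (median 2369) in wild-type and 1589 to 2233 (median 1849) in rNLS8 mice. All rNLS8 mice except T_61340 were below the wild-type range, and the gene was lower at -0.35 ± 0.05 (adjusted p = 1.47e-06 by edgeR). Cox6c (chr15:35931976-35938246) ranged from 3031 to 4815 (median 3513) and from 2501 to 3287 (median 2730), at -0.37 ± 0.06 (adjusted p = 3.14e-05 by edgeR), and 9 of 10 rNLS8 mice were below all wild-type mice. Cox6c2 (chr12:56373458-56373872), which the symbol rule includes, is annotated as a pseudogene copy of Cox6c, so that the division of reads between the pair is uncertain. It ranged from 319 to 469 (median 357) and from 224 to 357 (median 306), at -0.32 ± 0.07 (adjusted p = 0.000766 by edgeR).

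Cox7c (chr13:86044798-86046795) was higher in rNLS8 mice. Its counts were 2441 to 3749 (median 2746) in wild-type and 3006 to 4384 (median 3200) in rNLS8 mice. The ranges overlapped, the highest mice of both genotypes were of batch A, and the log2 fold change with batch as covariate was 0.26 ± 0.06 (adjusted p = 0.00134 by edgeR), with 0.26 in each batch alone. Cox7a2l (chr17:83501917-83514333), known as a supercomplex factor, ranged from 2333 to 2923 (median 2538) and from 2535 to 3472 (median 2762). It was higher at 0.14 ± 0.04 (adjusted p = 0.00799 by edgeR), although mouse T_61340 was the only rNLS8 mouse above all wild-type mice.

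Some complex IV subunits have isoforms that other tissues, such as heart, skeletal muscle, lung or testis, prefer. These isoform genes were low, and none was called by edgeR over all mice, although Cox7a1 was called lower in other settings. Cox6a2 (chr7:128205435-128206366), the form of heart and skeletal muscle, had normalised counts of 70.5 to 134 (median 98.0) in wild-type and 65.0 to 160 (median 99.1) in rNLS8 mice, and its log2 fold change was 0.03 with an interval from -0.19 to 0.25. The lung form Cox4i2 (chr2:152753916-152765039) had 19.0 to 38.0 and 20.6 to 42.4 (medians 27.4 and 28.0), and the testis form Cox6b2 (chr7:4751792-4753094) had 14.8 to 48.0 and 14.3 to 39.1 (medians 21.6 and 26.7). Both had wide intervals around 0, from -0.29 to 0.28 and from -0.37 to 0.55. Cox7a1 (chr7:30184171-30186030), another form of heart and skeletal muscle, had 6.86 to 29.8 (median 15.7) and 5.04 to 17.7 (median 10.7), at -0.57 ± 0.24 (adjusted p = 0.0514 by edgeR). Cox7a1 was called lower by edgeR in batch A alone (adjusted p = 0.0111), with adjustment for length and GC content (0.0318), without batch as covariate (0.0387) and with upper-quartile scaling (0.0499), and by DESeq2 without batch (0.0417). Leaving out 1 mouse gave adjusted p-values from 0.0182 to 0.118, and 7 of 21 such fits called it. In batch B alone it was at -0.08 and not called. Cox7b2 reached at most 6.26 normalised counts in any mouse and Cox8b at most 49.0, and neither was tested. Cox8c was at 0 counts in all 21 mice, which allows up to 3 counts, or 0.135 to 0.145 CPM, in a mouse.

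Complex V combines the F1 head and central stalk, which make ATP, with a membrane part that holds the ring of c subunits, a peripheral stalk and small subunits. In the head and stalk, 3 of 5 genes were lower (Atp5a1, Atp5b and Atp5e). In the peripheral stalk, 1 of 4 was lower (Atp5pb, at -0.10). Of the small membrane subunits, 4 of 5 were lower (Atp5k, Atp5l, Atp5md and Atp5mpl). The catalytic head genes are named after their values were seen: Atp5a1 was lower at -0.25 ± 0.05 (adjusted p = 0.000170 by edgeR) and Atp5b at -0.15 ± 0.04 (adjusted p = 0.00635), with 7 of 10 rNLS8 mice below all wild-type mice for each. Under library-size scaling Atp5b and Atp5e were no longer called (adjusted p = 0.114 and 0.306) and Atp5d was higher (adjusted p = 0.00841), so the head and stalk had 1 gene lower and 1 higher. The peripheral stalk then had none lower and 1 higher, and the small membrane subunits 3 lower and 1 higher.

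The c ring is made of 1 protein that is encoded by Atp5g1, Atp5g2 and Atp5g3, which differ in the mitochondrial targeting sequence that is cut off on import. Atp5g3 was lower, Atp5g1 was higher and Atp5g2 was not called over all mice. Atp5g3 (chr2:73908447-73912464) had counts of 4353 to 4924 (median 4785) in wild-type and 2916 to 3587 (median 3235) in rNLS8 mice, without overlap. Its log2 fold change was -0.52 ± 0.04 with an adjusted p of 2.70e-10 in edgeR's test, the smallest of all members, and it was -0.58 in batch A and -0.49 in batch B. Atp5g1 (chr11:96072793-96075694) ranged from 1613 to 2221 (median 1920) in wild-type and from 1854 to 3320 (median 2240) in rNLS8 mice, with 5 of 10 rNLS8 mice above all wild-type mice. It was higher at 0.27 ± 0.06 (adjusted p = 0.000632 by edgeR), and without mouse T_61340 the adjusted p was 0.000714. Atp5g2 (chr15:102662868-102671047), named after its values were seen, ranged from 1050 to 1347 (median 1183) and from 928 to 1512 (median 1081) and was not called at -0.09, with an interval from -0.20 to 0.03. Atp5g2 was called lower without mouse T_61340 (adjusted p = 0.0101 by edgeR) and with adjustment for length and GC content (adjusted p = 0.00266).

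Small membrane subunits of complex V join the ring part to the stalk and help ATP synthase form dimers. Atp5l (chr9:44913248-44920742), the g subunit, ranged from 1255 to 1966 (median 1732) in wild-type and from 928 to 1324 (median 1180) in rNLS8 mice. Most rNLS8 mice, 7 of 10, were below all wild-type mice, because 1 wild-type mouse was at 1255 and the next lowest at 1683. The log2 fold change was -0.55 ± 0.07 (adjusted p = 2.29e-07 by edgeR). Atp5k (chr5:108433246-108434399), the e subunit, ranged from 857.5 to 1105 (median 1013) and from 587 to 935 (median 829), at -0.34 ± 0.07 (adjusted p = 0.000212 by edgeR). Atp5md (chr19:47083471-47090647) ranged from 1332 to 2164 (median 1732) and from 1120 to 1547 (median 1417), at -0.32 ± 0.07 (adjusted p = 0.000272 by edgeR), and only 1 rNLS8 mouse was below all wild-type mice. Atp5k and Atp5l have pseudogene rows in the table that could share reads with them. With these rows added, the log2 fold changes were -0.34 and -0.56.

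**Figure D3:**
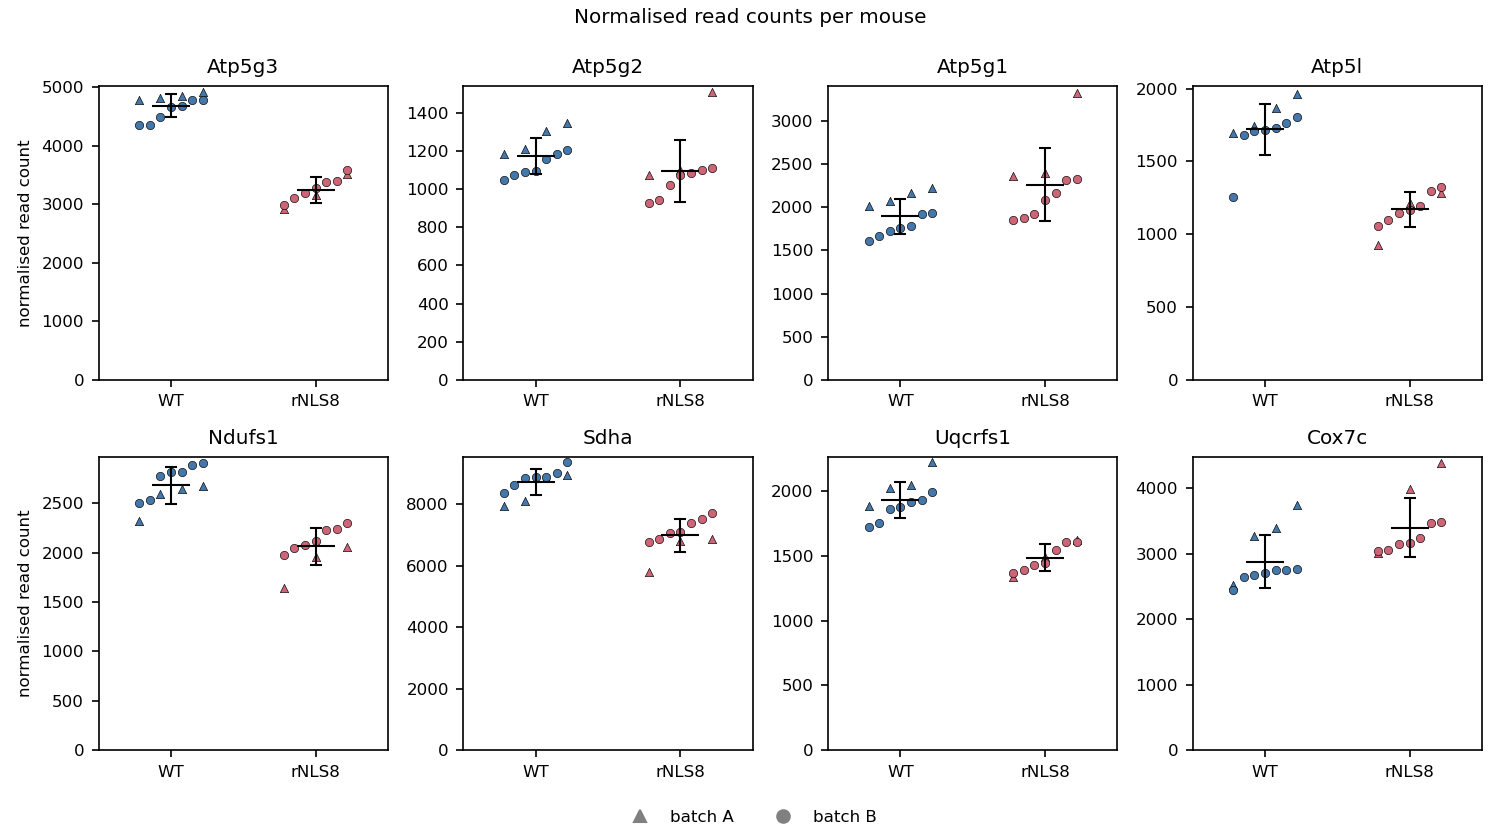
Normalised read count per mouse (y axis, from 0) of the c ring genes Atp5g3, Atp5g2 and Atp5g1 and of Atp5l, Ndufs1, Sdha, Uqcrfs1 and Cox7c in wild-type and rNLS8 mice, with triangles for batch A, circles for batch B, and mean and SD as lines and bars. The groups do not overlap for Atp5g3, Ndufs1, Sdha and Uqcrfs1, and 1 rNLS8 mouse of batch A is far above the others for Atp5g1.

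Promoters of the members were read from RefSeq (GRCm38.p6), with 250 bases before and 50 after the start of each gene, and 69 of 85 members had such an entry. They were searched on both strands for 4 motifs, chosen because their factors are known regulators of respiratory genes. The NRF1 motif (GCGC and TGCGC parted by any base) was found in 17 of 69 member promoters (24.6%), in 5.19% of all promoters in the table and in 9.94% of those of tested genes. The YY1 motif (AAGATG directly followed by GCGG) was found in 5 (7.25%, against 0.995% and 1.98%), the ETS motif CCGGAAGT in 5 (7.25%, against 4.31% and 7.73%) and the ERR motif TCAAGGTCA in 2 (2.90%, against 0.379% for tested genes). Among called members, the NRF1 motif was in 9 of 28 promoters of genes that were lower, 1 of 6 of genes that were higher and 7 of 33 of genes not called. The sequences of the c ring genes, which had different calls, and of Sdha, which holds 3 NRF1 matches, are given 5′ to 3′ in gene direction from 100 bases before to 30 bases from the start, with motif matches in capitals.
Atp5g3 (chr2:73911297-73911426, minus strand): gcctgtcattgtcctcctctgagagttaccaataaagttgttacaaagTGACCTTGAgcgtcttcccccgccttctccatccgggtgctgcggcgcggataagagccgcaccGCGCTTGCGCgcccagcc
Atp5g2 (chr15:102671018-102671147, minus strand): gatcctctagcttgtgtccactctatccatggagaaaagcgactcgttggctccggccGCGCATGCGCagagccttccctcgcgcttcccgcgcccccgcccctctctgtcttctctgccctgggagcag
Atp5g1 (chr11:96075602-96075731, minus strand): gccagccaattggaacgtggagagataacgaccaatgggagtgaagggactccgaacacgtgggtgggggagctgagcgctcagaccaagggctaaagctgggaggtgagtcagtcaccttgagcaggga
Sdha (chr13:74350211-74350340, minus strand): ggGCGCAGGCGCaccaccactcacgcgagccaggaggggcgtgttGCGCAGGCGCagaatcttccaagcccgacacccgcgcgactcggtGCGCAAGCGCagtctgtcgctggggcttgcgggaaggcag
Atp5g3 holds an ERR match on the opposite strand and an NRF1 match just after the start, Atp5g2 holds 1 NRF1 match, and Atp5g1 holds none of the 4 motifs in this window. The matches of Sdha are on the opposite strand. The start listed for Atp5g3 lies inside the annotated span of the gene. A match of letters is a description and not a bound site.

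Batch B, with 7 mice per genotype, called nearly as many members as all mice together, whereas batch A, with 4 and 3 mice, called few. In batch B alone 37 members were lower and 4 were higher, beside 19.8% and 19.3% of all genes. In batch A alone 6 were lower and none was higher, beside 4.83% and 6.99% of all genes. The log2 fold change had the same sign in both batches for 64 of 82 members, and the median over the members was -0.11 in each. A genotype by batch interaction was called for 0 of 18248 genes by edgeR's quasi-likelihood test. At an unadjusted p under 0.05 it was found for 1030 genes (5.64%), 2 of them members. These were Cox7a1, with -1.66 in batch A and -0.08 in batch B (unadjusted p = 0.000604, adjusted p = 0.808), and Cox6c2, with -0.54 and -0.22 (unadjusted p = 0.0175, adjusted p = 0.853).

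**Figure D4:**
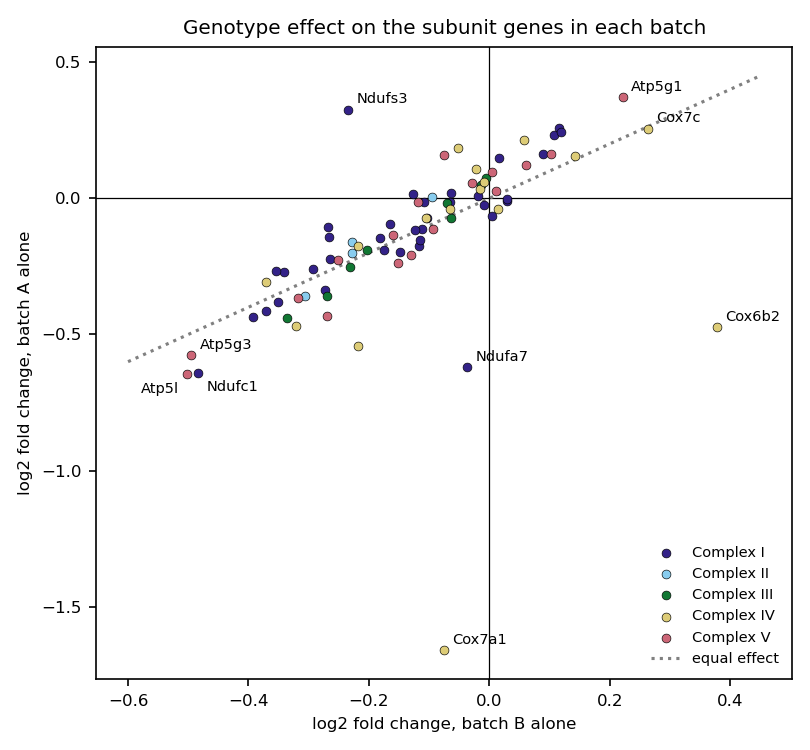
Log2 fold change of rNLS8 against wild-type mice in batch B alone (x axis) and in batch A alone (y axis) for 81 of the 82 tested subunit genes, colored by complex, with a dotted line of equal effect. Most genes lie near the line, below 0 on both axes, and Cox7a1, Ndufa7, Ndufs3 and Cox6b2 lie far from it.

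Within the rNLS8 group, mouse T_61340 had the highest normalised count for 61 of 82 tested members. Mouse T_70267 of batch B had the lowest for 26 members. Subunit genes have short transcripts, with a median length of 765 bases against 2861 over all genes tested (79 of 82 members with a length). Across genes, the deviation of T_61340 from each gene's mean over all mice went along with transcript length (Spearman rho = -0.46), whereas rho was between -0.14 and 0.23 in the other rNLS8 mice and between -0.12 and 0.19 in wild-type mice. Without T_61340, 43 members were lower and 4 higher, beside 22.4% and 23.3% of all genes. With adjustment for transcript length and GC content in each mouse, 44 were lower and 4 higher, beside 24.8% and 23.8% of all genes (48.6% called). Of the 43 members called over all mice, 6 lost their call when some 1 mouse was left out (Ndufa8, Ndufb11, Ndufs5, Ndufs7, Atp5e and Atp5pb).

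Markers of brain cell types were compared in the same test, since in bulk tissue fewer cells of a type and less RNA per cell cannot be told apart. Of 10 neuron markers, 7 were lower and none higher, and their summed level was 7041 to 8637 CPM in wild-type and 5239 to 6500 CPM in rNLS8 mice, without overlap. Rbfox3, Tubb3 and Slc17a7 were not called (-0.10, -0.06 and 0.06). Without T_61340 Rbfox3 was called lower (adjusted p = 0.00657 by edgeR) and Gad2 was no longer called (adjusted p = 0.0732), so 7 were again lower. Of 6 astrocyte markers, 5 were lower and Gfap was higher, with sums of 4071 to 5341 and 3202 to 4486 CPM. With scaling by library size only, 2 astrocyte markers were lower (Gja1 and Slc1a2). Of 8 microglia markers, 6 were higher and 1 was lower, with sums of 305 to 367 and 324 to 535 CPM. None of 6 oligodendrocyte markers was called (4282 to 7200 and 4098 to 7288 CPM), and 1 of 5 endothelial markers was lower (192 to 227 and 169 to 211 CPM). With scaling by library size only that marker, Flt1, was no longer called (adjusted p = 0.0938 by edgeR). No endothelial marker was lower with adjustment for length and GC content. Of the blood, choroid plexus and muscle markers, 1 of 6 tested was lower (67.3 to 2258 and 59.9 to 1132 CPM), and the muscle marker Ckm reached at most 5.88 normalised counts. All defining neuron, astrocyte, oligodendrocyte and microglia markers were expressed in every mouse. The part of these cell types in the subunit results was not tested.

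Other genes of the pathway were counted from lists. Over all genes tested, 21.7% were lower and 23.0% were higher. Of 13 mitochondrially encoded subunits, 6 were lower and none was higher. They were ND1, ND2, ND4, ND4L and ND6 of complex I and ATP8 of complex V, between -0.51 and -0.20, while COX1 of complex IV was at -0.08 (adjusted p = 0.351). ND6 had the largest change, at -0.51 ± 0.15 (adjusted p = 0.00884 by edgeR), but the groups overlapped widely, with 845 to 2918 normalised counts in wild-type and 613 to 3582 in rNLS8 mice. It was at -0.05 in batch A (adjusted p = 0.887) and at -0.74 in batch B (adjusted p = 0.00304). With scaling by library size only, ND1 and ATP8 were no longer called (adjusted p = 0.166 and 0.0972 by edgeR). Without T_61340 8 of the 13 were lower, and leaving out each mouse in turn gave 4 to 9 lower. The median of the list was -0.16, beside -0.0007 over all genes tested.

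Of 46 tested assembly factors, which help to build the complexes, 18 were lower and 8 were higher, beside 21.7% and 23.0% of all genes. Their median was -0.08. Cox17, a copper chaperone of complex IV, had normalised counts of 622 to 793 (median 700.0) in wild-type and 356 to 461 (median 431) in rNLS8 mice, without overlap. It was lower at -0.72 ± 0.05 (adjusted p = 1.06e-10 by edgeR). Cox14 was lower at -0.52 (adjusted p = 8.59e-08), whereas Cox11, another copper chaperone of complex IV, was higher at 0.33 (adjusted p = 3.88e-06). Cytochrome c (Cycs) was at -0.12 and cytochrome c1 (Cyc1) at 0.08 (adjusted p = 0.0149 and 0.221 by edgeR). They belong to 13 further subunits and electron carriers, of which 5 were lower and 2 higher, beside 21.7% and 23.0% of all genes. The number higher was 1 rather than 2 with DESeq2, without batch as covariate, with upper-quartile scaling, without a filter, in batch B alone, with the length and GC adjustment and without any 1 of 12 mice, T_61340 among them. With scaling by library size only this list had 2 lower and 6 higher, beside 15.1% and 32.0% of all genes. Cycs was then no longer called (adjusted p = 0.341 by edgeR) and Cyc1 was higher at 0.15 (adjusted p = 0.0129).

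Of 19 regulators of mitochondrial biogenesis and mitochondrial DNA expression, 7 were higher and 1 was lower, with a median of 0.11. Over all genes tested 23.0% were higher and 21.7% were lower. Without TMM factors, 12 regulators were higher and none was lower, beside 32.0% of all genes higher. Tfb2m, a transcription factor of mitochondrial DNA, ranged from 350 to 445 (median 397) in wild-type and from 538 to 667 (median 572) in rNLS8 mice, without overlap, and was higher at 0.58 ± 0.05 (adjusted p = 5.77e-10 by edgeR). The coactivators Ppargc1b and Pprc1 were higher at 0.36 and 0.33 (adjusted p = 0.00119 and 0.000284), and their relative Ppargc1a was lower at -0.16 (adjusted p = 0.0354). The call of Ppargc1a was lost without T_61340 (adjusted p = 0.0629), with scaling by library size only (0.279), without batch as covariate, without a filter on low counts and in batch A alone (0.533). It was also lost without wild-type mouse T_69532, T_70260 or T_70264 and without rNLS8 mouse T_69526, T_70252 or T_70261. Of 17 genes of the citric acid cycle and pyruvate dehydrogenase, 8 were lower and 3 higher, beside 21.7% and 23.0% of all genes. Their median was -0.09. Sucla2, a subunit of succinyl-CoA synthetase, ranged from 2250 to 2674 and from 1534 to 2004 (medians 2419 and 1825) and was lower at -0.45 ± 0.05 (adjusted p = 2.17e-08 by edgeR). With scaling by library size only, 4 genes of this list were lower and 4 higher, beside 15.1% and 32.0% of all genes.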

How the data were processed

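The mRNA from neocortex of 21 mice had been sequenced by BGI as paired reads of 100 bases. Per gene symbol, the authors deposited raw counts of reads. The submitters' processing notes list HISAT2, Bowtie2 and RSEM with the build mm10, the methods name GRCm38, and whether counting used strand is not given in the sources used here. Genotype, batch and mouse number came from the labels. That each library is a separate mouse was taken from these numbers.

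The counts were tested with edgeR 4.0.16 in R 4.3.3 (minimum count 10, minimum total 15, TMM scaling, quasi-likelihood test, 2-sided). Levels per complex are means of log2 CPM (TMM effective library sizes, prior count 2). Alternatives included DESeq2 1.42.0. Adjustment for transcript length and GC content (GENCODE M21, splines with 4 degrees of freedom), sums over copies and levels within each batch were alternatives added after seeing the data. The edgeR and DESeq2 fits were tested on simulated data. Limits from 3 counts cover counting error only, since PCR duplicates could not be told from separate molecules.

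Positions are from RefSeq GRCm38.p6. Named with values were up to 4 called members per complex with the largest absolute log2 fold change, up to 4 called in the opposite direction, the complex II genes, the tissue-restricted isoforms and the nuclear core genes of complex I. A member that is counted in the totals is not reported here by name. The members and lists were chosen with earlier results of these data known.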

Additional observations from a re-analysis of the deposited data

Results flagged for a closer look

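In 37 sets of values from mice of 1 group (normalised counts of the named genes and mean levels of the complexes in the rNLS8 mice), the highest or lowest mouse was compared with the others, and in 10 its gap to the nearest mouse was above Dixon's 95% critical value. Chance gives about 1 in 20 for a single set. The sets share the same rNLS8 mice and the complex levels include the named genes, so the sets are not independent.

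Mouse T_61340 of batch A was the highest of the rNLS8 mice in 7 of them. Its normalised count was 1506 for Ndufs8 (others 1106 to 1255) and 3207 for Ndufv1 (2408 to 2697). These are core genes of complex I, called higher and lower over all mice. It was also highest at 2233 for Cox5a (1589 to 1930), 3472 for Cox7a2l (2535 to 2880) and 3320 for Atp5g1 (1854 to 2400). Its mean log2 CPM was 6.597 for complex III (6.182 to 6.402) and 7.106 for complex V (6.716 to 6.922).

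Mouse T_60303 of batch A was the lowest rNLS8 mouse for Ndufs1, at 1645 (others 1955 to 2295), and for Sdha, at 5785 (6764 to 7719). Mouse T_61342 of batch A was the lowest for Atp5md, at 1120 (1352 to 1547).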

How the results depend on the processing

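No paired analysis was possible because each mouse number occurs once. Of the alternatives other than leaving out mice, DESeq2 with or without batch, edgeR without batch, upper-quartile scaling, other filters on low counts and removal or summing of copies gave 32 to 38 members lower and 6 higher.

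Batch A alone gave 6 members lower and 0 higher, with 2, 0, 1, 1 and 2 lower for complexes I to V. It gave 0 mitochondrially encoded subunits lower, 3 assembly factors lower and 1 higher, 0 further subunits and carriers lower and 0 higher, 0 regulators lower and 1 higher, and 2 citric acid cycle genes lower and 0 higher. In batch B alone 5 assembly factors and 1 further subunit or carrier were higher. Library-size scaling gave 12 members higher, 5 genes of complex V lower, 2 further subunits and carriers lower and 6 higher, 0 regulators lower and 12 higher, 4 citric acid cycle genes lower, and a difference of -0.13 for the level of complex II. This scaling raised log2 fold changes by a median of 0.0765 over all genes tested. The medians over subunit genes of the other complexes also moved under it, as given above, and their levels under it are not given here. Without a filter, 3 further subunits and carriers were lower, 1 was higher and 0 regulators were lower. DESeq2 with and without batch, edgeR without batch, upper-quartile scaling and the length and GC adjustment each gave 1 further subunit or carrier higher, and DESeq2 and edgeR without batch gave 0 regulators lower. With the median over subunits, the level difference was -0.03 for complex I and 0.0051 for complex V. The causes were not tested.

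Some genes that were not called changed sign. With library-size scaling Ndufs3 was at 0.023, Sdhd at 0.012 and Cox4i2 at 0.067. In batch A alone Ndufs3 was at 0.33, Ndufv2 at -0.0038, Sdhd at 0.0034 and Cox6b2 at -0.47, and in batch B alone Cox4i2 was at 0.014 and Cox6a2 at -0.053. With the length and GC adjustment Ndufv2 was at -0.0048 and Cox6a2 at -0.020, and without a filter Cox4i2 was at 0.0076.

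Leaving out each mouse in turn gave 34 to 43 members lower and 4 to 7 higher, 1 to 3 further subunits and carriers higher and 0 to 2 regulators lower. The log2 fold change ranged from -0.13 to 0.045 for Ndufs3, from -0.018 to 0.043 for Ndufv2, from -0.092 to 0.045 for Cox4i2, from -0.035 to 0.072 for Cox6a2 and from -0.0006 to 0.20 for Cox6b2. Batch A has 4 and 3 mice, which limits its calls. The length and GC adjustment could not be made for the mitochondrially encoded genes, which had no transcript entry under their symbols.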

Other observations

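The table holds 2 rows for further copies and 8 pseudogene rows of the members, which were left out of the counts above. The copy row of Atp5a1 had mean normalised counts of 16384 (wild-type) and 13698 (rNLS8) and was lower at -0.27 ± 0.06 (adjusted p = 0.000935 by edgeR), and that of Uqcrc1 had 3951 and 4003 at 0.01 ± 0.05 (adjusted p = 0.880). The pseudogene rows Atp5k-ps1, Atp5k-ps2, Atp5l-ps1 and Atp5l2-ps were lower, at -0.34, -0.39, -0.94 and -0.57, from low mean counts of 86.9, 91.6, 27.0 and 118 in wild-type mice. Cox5b-ps was not called at 0.10 ± 0.05 (adjusted p = 0.125), with means of 445 and 474. The remaining 3 pseudogene rows were too low to be tested.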
